A study of Mus musculus with 8 samples.

Results

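Lipg, Aqp9 and Ggt1 are 3 genes whose products work at or outside the cell surface and make small metabolites available to the cell. They were selected from the authors' deposited table of probesets changed between CD38high and CD38low myeloid cells, by gene symbol, and they make up 3 of the 482 genes named in that table. The table lists 498 of the 23332 probesets on the arrays (2.13%), 124 of them higher in CD38high cells (0.531% of all probesets). Each of the genes has 1 probeset in that table; other probesets of the arrays carry no gene name here. The values that chose the 3 genes are their CD38high and CD38low levels on these same 8 arrays, so the difference between the fractions is given below as a description and without a test.

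The cells were splenocytes positive for CD11b and Gr1, the surface phenotype of myeloid-derived suppressor cells, a mixture of immature and mature granulocytic and monocytic cells that accumulates in tumor-bearing mice. They came from L2-Cre;p120f/f mice aged 12 months, of mixed C57BL/6x129 background, that bore esophageal tumors. In this line Cre, driven by a viral promoter active in squamous epithelium such as that of the esophagus, removes the floxed gene of p120-catenin, an adherens junction protein. Both fractions carried this genotype and both came from tumor-bearing animals; tumor-free mice were not analysed here. Sorting split the cells by their CD38 signal into a high and a low fraction, called CD38high and CD38low here. Each fraction was measured on 4 Affymetrix arrays, from 3 individual mice (mice 1, 2 and 3) and from 1 pool of splenocytes of 3 mice. The labels do not say whether the pool held mice 1 to 3, or whether the same mice gave both pool arrays. The values are log2 expression, on which 1 unit is a 2-fold difference, and array medians lay between 6.92 and 7.10.

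Cd38 itself, which encodes the NAD-consuming enzyme used for the sort, was at 12.43, 12.54, 12.60 and 12.25 in the CD38high arrays of mice 1, 2 and 3 and the pool, and at 10.74, 10.90, 10.56 and 9.63 in their CD38low arrays. The fractions did not overlap, and the transcript followed the sort in 4 of 4 pairs. Cd38 could be named only because the authors' table of changed probesets lists it, so selection largely fixed this separation. The rows of the gate markers Itgam and Ly6g could not be identified by name, so the CD11b and Gr1 gate was not checked here. In such bulk arrays, fewer cells that express a gene and less RNA per cell cannot be told apart.

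Lipg encodes endothelial lipase, a secreted enzyme of the lipoprotein lipase family that cleaves mainly phospholipids of high-density lipoproteins and so releases fatty acids and lysophospholipids at the cell surface. Aqp9 encodes aquaporin 9, an aquaglyceroporin, a membrane channel that lets glycerol, urea and other small uncharged solutes pass besides water, and that is known from neutrophils and liver cells. Ggt1 encodes gamma-glutamyltransferase 1, a membrane enzyme with its active site outside the cell, which takes the gamma-glutamyl group off extracellular glutathione. Dipeptidases then split the remaining dipeptide, and the cysteine can be taken up for new glutathione synthesis. The same enzyme class also acts on glutathione conjugates such as leukotriene C4.

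All 3 transcripts were higher in every CD38high array, and no sequence is printed for Lipg. The upstream sequences of Aqp9 and Ggt1 are shown as background. They are the 250 bases before annotated transcription starts in RefSeq, build GRCm38.p6, and the arrays do not tell which start was in use. Both Aqp9 starts are on the minus strand of chromosome 9, with windows at chr9:71163290-71163539 and chr9:71162634-71162883. The first of 4 Ggt1 windows is on the plus strand of chromosome 10, at chr10:75563882-75564131. Capitals mark matches, on either strand, to short motifs of transcription factors known from myeloid cells: TTNNGNAA for C/EBP factors, GAGGAA for PU.1, TGANTCA for AP-1 and AGATAA for GATA factors.
Aqp9 start 1: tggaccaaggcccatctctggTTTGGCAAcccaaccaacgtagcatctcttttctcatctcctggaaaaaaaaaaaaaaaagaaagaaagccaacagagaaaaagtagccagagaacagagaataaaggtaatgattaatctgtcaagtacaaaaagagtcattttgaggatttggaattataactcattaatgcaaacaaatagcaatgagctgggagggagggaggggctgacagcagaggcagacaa
Aqp9 start 2: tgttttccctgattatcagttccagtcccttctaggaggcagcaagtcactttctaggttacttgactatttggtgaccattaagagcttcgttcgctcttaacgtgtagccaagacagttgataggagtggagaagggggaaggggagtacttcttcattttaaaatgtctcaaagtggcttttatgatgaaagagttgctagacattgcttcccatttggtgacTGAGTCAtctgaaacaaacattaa
Ggt1 start 1: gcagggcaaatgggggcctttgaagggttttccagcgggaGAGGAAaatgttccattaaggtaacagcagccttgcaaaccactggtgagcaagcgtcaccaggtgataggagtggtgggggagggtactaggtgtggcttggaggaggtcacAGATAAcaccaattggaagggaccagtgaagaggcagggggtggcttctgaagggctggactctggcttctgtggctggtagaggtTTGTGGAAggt

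No 2 of the marked matches overlap. The first Aqp9 window held a C/EBP match that begins 229 bases before the start, and the second an AP-1 match that begins 24 bases before it. The Ggt1 window held a PU.1, a GATA and a C/EBP match, which begin 210, 97 and 11 bases before the start. The other Ggt1 windows (chr10:75568412-75568661, chr10:75571310-75571559 and chr10:75573245-75573494) held none of these letters. Such matches are common: of 32851 RefSeq windows of the same length, 36.8% held the C/EBP letters, 23.3% the PU.1 letters, 9.99% the GATA letters and 6.75% the AP-1 letters. They are descriptions of sequence and not binding sites. GC content was 40.4% and 41.6% in the Aqp9 windows and 55.2% in the printed Ggt1 window.

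Lipg was at 9.29, 9.88, 9.50 and 9.73 in CD38high cells of mice 1, 2 and 3 and the pool. In CD38low cells it was at 6.83, 7.06, 6.94 and 7.59. The fractions were far apart, with 1.70 log2 units between the lowest CD38high and the highest CD38low array. The means were 9.60 ± 0.26 and 7.10 ± 0.34 (SD, n = 4 each), a log2 difference of 2.50 ± 0.19 (limma SE), or 5.64-fold. Within the pairs the difference was 2.47, 2.82, 2.56 and 2.14, so that the smallest belonged to the pool and the largest to mouse 2.

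Aqp9 was at 10.04, 9.49, 10.16 and 10.73 in CD38high cells of mice 1, 2 and 3 and the pool. Its CD38low values were 7.85, 7.45, 8.12 and 8.58. The arrays fell in the same order in both fractions, with mouse 2 lowest, then mouse 1, mouse 3 and the pool. The lowest CD38high array stood 0.91 above the highest CD38low array. The means were 10.10 ± 0.51 and 8.00 ± 0.47 (SD, n = 4 each), a log2 difference of 2.10 ± 0.31 (unpaired limma SE), or 4.30-fold. With the pairs fitted, this SE was 0.08. Taken within the pairs, the difference hardly varied, at 2.19, 2.04, 2.04 and 2.15, or 4.11-fold to 4.55-fold. The SD of these 4 pair differences was 0.07, and 6.62% of all probesets had a smaller one, whereas 88.7% of all probesets had a smaller spread within the fractions than Aqp9.

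Ggt1 was at 11.48, 10.20, 11.19 and 11.13 in CD38high cells of mice 1, 2 and 3 and the pool. In CD38low cells it was at 8.50, 7.74, 8.58 and 8.92. Mouse 2 was the lowest in both fractions, and the fractions again did not overlap, with a gap of 1.27. The means were 11.00 ± 0.55 and 8.43 ± 0.50 (SD, n = 4 each), a log2 difference of 2.56 ± 0.33 (limma SE), or 5.92-fold. Within the pairs the difference was 2.99, 2.46, 2.61 and 2.20, from 4.61-fold in the pool to 7.92-fold in mouse 1. The SD of the pair differences was 0.33 for Ggt1 and 0.28 for Lipg, against a median of 0.22 over all probesets.

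**Figure D1:**
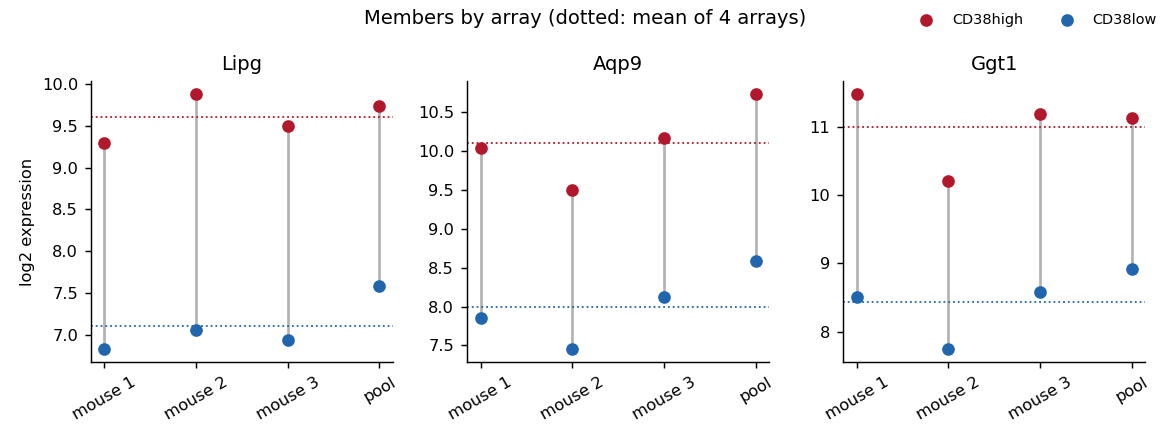
Log2 expression of Lipg, Aqp9 and Ggt1 (vertical axes, each with its own range) in the CD38high (red) and CD38low (blue) array of mice 1, 2 and 3 and the pool. Grey lines join the fractions of a mouse or the pool and dotted lines are means of 4 arrays. All CD38high points lie above all CD38low points, and the Aqp9 lines are nearly equal in length, at 2.04 to 2.19.

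All 3 genes were higher in the CD38high array in 4 of 4 pairs with no overlap of the fractions, as the choice from a table of changed probesets largely fixes. Over all probesets, 6.99% had every CD38high array above every CD38low array. In the unpaired limma fit 10.6% of all probesets were called at an adjusted p under 0.05, and 3.74% were called as higher in CD38high cells. With a replicate block for mouse or pool 16.8% were called. Nothing about the 3 genes is read from these shares. Ranked from the difference furthest towards CD38high cells, Ggt1 was number 5, Lipg number 6 and Aqp9 number 17 of the 23332 probesets, and numbers 3, 4 and 13 of the 124 probesets listed as higher. The smallest difference among those 124 was 1.0, at the authors' 2-fold minimum, and the largest of a probeset outside the table was 2.66, so a large difference alone did not place a probeset in it.

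**Figure D2:**
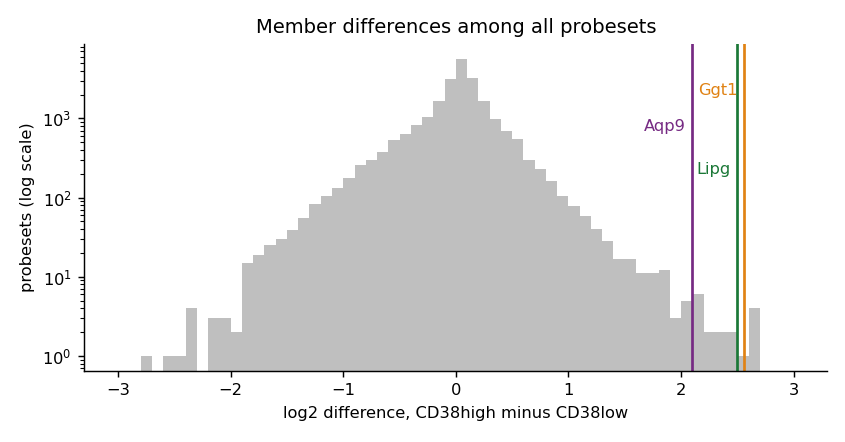
Number of probesets (vertical axis, log scale) by log2 difference, CD38high minus CD38low (horizontal axis, bins of 0.1), for all 23332 probesets. Vertical lines mark Aqp9 at 2.10, Lipg at 2.50 and Ggt1 at 2.56, which lie in the sparse right tail.

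The level that both fractions of a mouse share is a measure that the contrast of the fractions does not use. However, a two-sample test, as named in the series design, disfavours probesets with a large spread within a fraction. The exact rule behind the authors' table is not known here. The mean of both fractions of Aqp9 was 8.94, 8.47, 9.14 and 9.65 in mice 1, 2 and 3 and the pool. This spread was larger than the variation left after fraction and pair were fitted (limma F test, adjusted p = 0.0286 over all probesets). By that test 3.14% of all probesets differed between mice or pool. Before adjustment, 5014 of the 23332 probesets had a p under 0.05 in this limma F test. Without the pool the call of Aqp9 was lost (limma adjusted p = 0.101). Without mouse 2 or mouse 3 its limma adjusted p was 0.192 and 0.0754, in fits that called 0 of all probesets, with 3287 and 4284 at an unadjusted p under 0.05. For Ggt1 the means of both fractions were 9.99, 8.97, 9.88 and 10.03, with mouse 2 about 1 log2 unit below the others. Ggt1 did not pass (limma adjusted p = 0.0775). It passed among probesets above the median level (limma adjusted p = 0.0377) and without mouse 1 (limma adjusted p = 0.0467), and stood at an adjusted p of 0.971 in limma without mouse 2. Lipg had means of 8.06, 8.47, 8.22 and 8.66 and did not pass (limma adjusted p = 0.247). Whether the 3 genes differ from each other in this respect was not tested, and a difference between animals cannot be told apart from handling that both fractions of an animal shared.

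**Figure D3:**
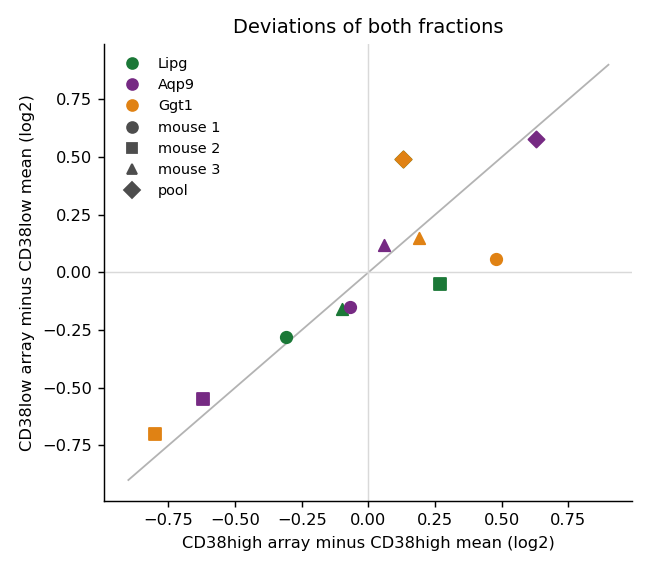
Deviation of each CD38high array (horizontal axis) and of the CD38low array of the same mouse or pool (vertical axis) from the mean of its fraction, in log2 units, for the 3 genes (colours) and the 4 pairs (symbols). The grey diagonal marks equal deviations, and the Aqp9 points lie close to it from mouse 2 (-0.62 and -0.55) to the pool (0.63 and 0.58).

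The genes did not share one order of arrays. After the fraction means were taken off, the 8 deviations of Aqp9 and Ggt1 correlated at r = 0.79, but at 0.20 without mouse 2. Those of Lipg and Aqp9 correlated at 0.29, and at 0.92 without mouse 2 or -0.73 without the pool. Those of Lipg and Ggt1 correlated at -0.15, and at 0.40 without mouse 2 or -0.93 without the pool. Single pairs thus decide these values, which are descriptions over 8 arrays that share 4 animals or pools. Mouse 2, lowest for Aqp9 and Ggt1 in both fractions, had the highest CD38high value of Lipg, and mouse 1 was the lowest for Lipg in both fractions. The CD38low array of the pool had the lowest Cd38 level of all arrays (9.63) and, within its fraction, the highest level of each of the 3 genes (7.59 for Lipg, 8.58 for Aqp9 and 8.92 for Ggt1). The same array was also the highest of its fraction for the mature neutrophil markers Fpr1 (12.64), Il1rn (9.32) and Clec4e (11.36), though not for Stfa3, and their part in these levels was not tested.

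The named genes whose deviations were most like those of each gene were then taken from the 479 other named genes of the authors' table that are neither predicted genes nor small RNAs. For Lipg they were Larp7, which binds the small nuclear RNA 7SK (r = 0.90), Gcnt1, a glycosyltransferase that builds core 2 O-glycans (0.84), Rdh12, a retinol dehydrogenase (0.82), St3gal6, a sialyltransferase (0.79), and Adam8, a membrane metalloprotease (0.76). Adam8 was the least stable of them, at 0.26 without the pool. For Aqp9 they were Il1rn, the interleukin 1 receptor antagonist (r = 0.91), Psmg2, a chaperone of proteasome assembly (0.90), Phospho1, a phosphatase that acts on phosphocholine and phosphoethanolamine (0.90), Adora3, the adenosine A3 receptor (0.90), and Bst1, an ADP-ribosyl cyclase related to CD38 (0.86). Leaving out any 1 pair kept these 5 at 0.73 or more. They had been picked as the highest of 479 on these same arrays, which favours such values, so nothing is read from this. For Ggt1 they were Chil5, a chitinase-like gene listed by the authors as Bclp2 (r = 0.94), Cd84, a receptor of the SLAM family (0.90), Prok2, a secreted prokineticin (0.89), Il1rn (0.89) and Cd55, which protects cells from complement (0.89). Without mouse 2 the value of Il1rn with Ggt1 was 0.24 and that of Cd55 was 0.56.

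Over all other probesets the median r was 0.03 for Lipg, 0.04 for Aqp9 and -0.02 for Ggt1. The 95th percentile was 0.64, 0.71 and 0.72, so values near 0.7 are common with so few arrays. Of the 14 like genes, Larp7 and Psmg2 were lower in CD38high cells (log2 differences of -1.07 and -1.14) and the others were higher, from 1.08 for Cd84 to 2.62 for Prok2. Over all probesets of the authors' table, the median r was 0.23 for Lipg, 0.46 for Aqp9 and 0.50 for Ggt1 with those higher in CD38high cells, and -0.10, -0.31 and -0.34 with those lower.

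**Figure D4:**
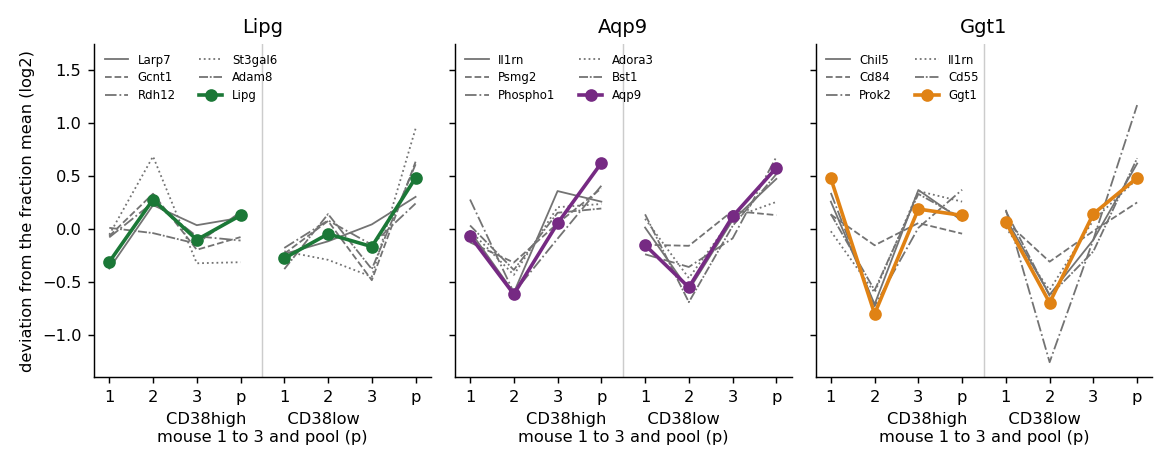
Deviation from the mean of the fraction (vertical axis, log2 units) in the 4 CD38high and the 4 CD38low arrays (horizontal axis, mice 1 to 3 and pool) for Lipg, Aqp9 and Ggt1 (coloured) and the 5 named genes most like each (grey). Lines only guide the eye, since arrays have no order. Mouse 2 is the low point of Aqp9 (-0.62 and -0.55) and Ggt1 (-0.80 and -0.70) but not of Lipg (0.27 and -0.05).

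Of 39 genes for aquaporins and the use of glycerol, 5 could be named, Aqp9 and 4 others. Gk, the kinase that traps glycerol in the cell as glycerol 3-phosphate (listed as Gyk), was at 10.03, 9.37, 9.88 and 9.95 in CD38high and 8.56, 8.43, 8.01 and 8.55 in CD38low cells, 2.68-fold higher. Gpat3, which attaches the first fatty acid to glycerol 3-phosphate (listed as Agpat9), was at 9.73 ± 0.12 against 8.35 ± 0.19 (SD, n = 4 each), 2.60-fold higher. Agpat5, an acyltransferase of the next step, was at 6.67 ± 0.28 against 7.77 ± 0.15 (SD, n = 4 each), 2.14-fold lower. The monocarboxylate transporter Slc16a1, which carries lactate and pyruvate, was at 6.98 ± 0.05 against 8.66 ± 0.15 (SD, n = 4 each), 3.21-fold lower. Besides Aqp9, the list therefore held 2 genes higher and 2 lower in CD38high cells.

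Of 52 genes for glutathione and the gamma-glutamyl cycle, 5 could be named, Ggt1 and 4 others, of which 1 was higher and 3 were lower. Ggt5, a second surface gamma-glutamyltransferase, known for its action on leukotriene C4, was at 10.02, 9.85, 9.76 and 9.84 in CD38high and 7.97, 8.44, 7.98 and 8.45 in CD38low cells. It was 3.15-fold higher, and the fractions did not overlap. Abcc1, which exports glutathione conjugates, was at 7.91 ± 0.22 against 9.02 ± 0.03 (SD, n = 4 each), 2.16-fold lower. Gsto1, a glutathione transferase of the omega class, was at 8.39 ± 0.48 against 10.21 ± 0.20 (SD, n = 4 each), 3.54-fold lower, and Slc1a5, a glutamine transporter, was 2.07-fold lower.

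Of 14 leukotriene genes only Cyp4f18, whose product inactivates leukotriene B4 in mouse neutrophils, could be named. It was at 11.72 ± 0.14 against 10.33 ± 0.41 (SD, n = 4 each), 2.61-fold higher. Of 53 genes for lipases and lipid uptake, Lipg alone could be named. Names came only from the authors' table, so each named gene of these lists had been selected as changed, and a gene that could not be named is not shown to be unchanged. Without Aqp9 and Ggt1, the median log2 difference was 0.14 over the 4 other named genes of the glycerol list and -1.08 over the 4 of the glutathione list, beside 0.04 over all probesets. Nothing is read from these medians, since selection kept only genes that differed at least 2-fold.

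**Figure D5:**
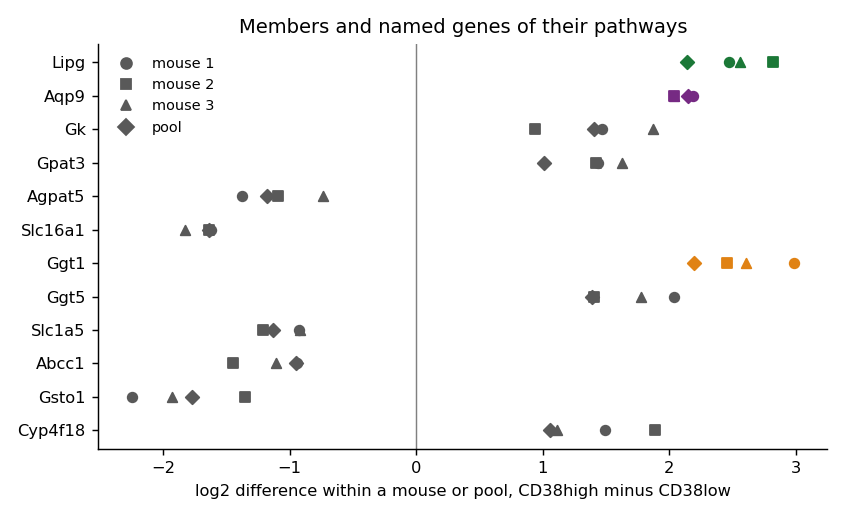
Log2 difference between the CD38high and the CD38low array of the same mouse or pool (horizontal axis) for Lipg, Aqp9 and Ggt1 (coloured) and the named genes of their pathway lists (grey), with 1 symbol per pair. The 4 symbols of each gene lie on one side of 0, and Lipg, Aqp9 and Ggt1 have the 3 highest mean differences of the genes shown, from 2.10 to 2.56.

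Markers of other cells and of maturity could be named only from the authors' table, so each named one differed between the fractions by selection. A marker that could not be named is not shown to be unchanged. Of 21 markers of the gate and of mature neutrophils, 4 could be named (Fpr1, Il1rn, Clec4e and Stfa3), and their mean level per array was 11.33 to 11.65 in CD38high and 9.64 to 10.26 in CD38low cells. Of 9 markers of granulocyte precursors, 5 could be named (Mpo, Elane, Prtn3, Ctsg and Ms4a3), at 10.80 to 11.19 against 13.00 to 13.12. Cd79a, the 1 named of 12 markers of B and plasma cells, was at 7.99 to 9.75 against 6.45 to 7.33. It was lowest in mouse 2 in both fractions, as Aqp9 and Ggt1 were. That order was not particular to Cd79a. Mouse 2 was also lowest in both fractions for Chil5, Cd84, Prok2, Il1rn and Cd55, picked above for their likeness to Ggt1. Nkg7, the 1 named of 13 T and NK cell markers, was at 8.86 to 10.29 against 11.61 to 12.50 and was highest in mouse 2 in both fractions. Selp, of the platelet markers, and Hdc, known from basophils and mast cells, were 2.42-fold and 2.20-fold higher, and the dendritic cell marker Mgl2 was 6.60-fold lower. None of the markers listed for monocytes and macrophages (14 genes), erythroid cells (9) or endothelial and stromal cells (15) could be named. Selp is known from endothelial cells as well as platelets. The sort for CD11b and Gr1 should remove cells that lack these antigens, such as B, T, erythroid and endothelial cells, and how completely it did so was not measured here. The part of other cells in the levels of Lipg, Aqp9 and Ggt1 was not tested.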

How the data were processed

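Gene expression was measured in 8 mouse samples, 1 array each. The authors deposited normalized log2 values per probeset and a table of changed probesets. The submitters' processing notes name Affymetrix Power Tools, RMA, PLIER and the mouse build mm9; whether RMA or PLIER gave the values is not given in the sources used here. Their normalization was kept. Batches could not be examined, since no scan dates were used.

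All 498 rows of the authors' table matched exactly 1 probeset in all 8 values, to 5 decimals, which named 484 probesets (2.07%). Symbols were updated through RefSeq (GRCm38.p6). The 3 genes, the gene lists and the rule for named genes were chosen with earlier results of these data known. Named were these genes, Cd38, the 5 most like each by Pearson r of deviations from the fraction means, and every list gene with a name (of several probesets, the one with the highest mean).

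Fits used limma 3.58.1 (R 4.3.3) over all 23332 probesets, two-sided, with Benjamini-Hochberg adjustment and calls under 0.05, and were tested on simulated data. The fractions were compared without pairs, after the two-sample test of the series design. The limma F test of mouse or pool had fraction as a further term. Both arrays of a mouse come from the same animal, per the labels, which do not say so for the mice of the pool. Deviations of the arrays paired by mouse or pool correlated at 0.345 to 0.675, against -0.577 to 0.0998 between other arrays of opposite fractions. Deviations from a fraction mean cancel out within the fraction, so positive values within pairs push the other values down. The second range is therefore not an independent baseline. The SE beside each difference is that of the unpaired fit. With mouse or pool fitted as well, it was 0.12 for Lipg, 0.08 for Aqp9 and 0.14 for Ggt1. The correlations between the 3 genes without a pair were added after seeing the data. Alternatives were replicate blocks, scaling, a filter on dim probesets, group medians, variance models, the methods' t-test and leaving out arrays. Other work used Python 3.11.15, pandas 2.3.3, numpy 2.4.6 and matplotlib 3.10.9.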

Additional observations from a re-analysis of the deposited data

Results flagged for a closer look

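Dixon's test at the 95% level was applied to the 4 arrays of each fraction for every gene named above. Of 80 such groups, 4 held an array that stood apart from the rest, and chance alone gives about 4 at 1 in 20. None belonged to Lipg, Aqp9 or Ggt1. The CD38low pool had St3gal6 at 8.02, while the other CD38low arrays had 6.62 to 6.86. Mouse 2 had Rdh12 at 11.23 in its CD38high array, while the others had 10.87 to 10.91. Mouse 3 had Slc16a1 at 8.89 in its CD38low array, while the others had 8.57 to 8.61, and Fpr1 at 13.54 in its CD38high array, while the others had 13.31 to 13.33. All values are log2 expression.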

How the results depend on the processing

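Lipg, Aqp9 and Ggt1 kept their direction under all 15 alternatives run on each, and moved by less than the spread between arrays of a fraction: the log2 difference was 2.39 to 2.66, 1.90 to 2.31 and 2.33 to 2.83. Their fractions did not overlap, so leaving out arrays could not reverse the direction, and nothing is read from its being kept. None of the 498 listed probesets changed sign with quantile or median scaling. These shifted the median difference over all probesets by only -0.028 and -0.007, while the listed probesets had been selected at 2-fold or more. A change of sign was therefore hardly possible. The count of probesets called between the fractions was 2479. It was 3929 with the replicate block, 3840 with a random replicate block and 1598 by the methods' t-test after Benjamini-Hochberg. With that t-test at the authors' p of 0.001 and 2-fold minimum it was 351, fewer than the 498 probesets of the authors' table. The exact rule behind that table is not known here. With a mouse, the pool or an array left out the count was 540 to 2436, lowest without mouse 1. The count that differed between mice or pool (732) was 297 with median scaling, 1106 among probesets above the median level, and 0 to 865 with a mouse or the pool left out. The count of 0 in limma was reached without mouse 2 or mouse 3, where 3287 and 4284 probesets had an unadjusted p under 0.05. For Aqp9 the adjusted p of this limma F test was 0.0130 to 0.0387 under scaling, filter and variance alternatives and 0.0304 to 0.192 with a pair left out. For Ggt1 it was 0.0377 among probesets above the median level, 0.0679 to 0.0805 under the other 3, and 0.0467 to 0.971 with a pair left out. Lipg stayed at 0.183 to 0.447. With 4 pairs, the number of arrays limits these tests. The causes were not tested.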
